A study of Mus musculus with 4 samples.

Results

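The genes examined here are the receptors that sense foreign compounds in the liver, the cytochrome P450 genes of the Cyp1a and Cyp2b subfamilies that they control, and the reductase that feeds electrons to these enzymes. The 9 genes were taken by symbol: the receptors Nr1i3, Nr1i2 and Ahr, the P450 genes Cyp1a1, Cyp1a2, Cyp2b9, Cyp2b10 and Cyp2b13, and the reductase Por. The platform annotation used here names 12 probe sets for 8 of them, out of 18194 genes with a probe set of their own. It names no probe set for Por, so no value is given for the reductase. mRNA was measured on 4 Affymetrix mouse arrays, 1 for each of 4 liver genotypes. ΔS6:c-Myc livers had Rps6, a protein of the small ribosomal subunit, deleted from floxed alleles by Albumin-Cre and also carried an albumin-driven c-Myc transgene. ΔS6 livers had the same deletion without the transgene, Alb-c-Myc livers had the transgene with intact Rps6, and WT livers had neither Cre nor transgene. Each array received equal parts of RNA from 3 non-fasted male mice of a mixed hybrid strain at 5 weeks of age. Albumin-Cre acts in hepatoblasts and their descendants and deletes Rps6 in only some of them, so both deleted livers still held cells with Rps6.

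In the unstimulated hepatocyte the aryl hydrocarbon receptor (Ahr) and the constitutive androstane receptor (Car, the product of Nr1i3) sit in the cytoplasm with chaperones. After activation they enter the nucleus, where Ahr pairs with Arnt on xenobiotic response elements (XRE) and Car pairs with a retinoid X receptor on repeats of a nuclear receptor half-site. The pregnane X receptor (Pxr, the product of Nr1i2) also pairs with a retinoid X receptor and shares many targets with Car. The P450 enzymes they induce oxidise drugs, steroids and pollutants on the smooth endoplasmic reticulum, with electrons from the reductase Por.

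All values are log2 expression values, and a difference between 2 arrays is a log2 ratio. With 1 array of pooled RNA per genotype the ratios cannot be checked against replicates, and p-values are not reported. A ratio of at least 2-fold is counted as higher or lower. As a yardstick, the SD of a ratio between probe sets of the same gene (3379 genes) was 0.27 for ΔS6 over WT, 0.14 for Alb-c-Myc over WT, 0.24 for ΔS6:c-Myc relative to Alb-c-Myc, 0.20 for ΔS6:c-Myc over ΔS6 and 0.29 for ΔS6:c-Myc over WT. This is not an error between mice. The 9 probe sets shared by Rps6 and its pseudogene Rps6-ps4 were all lower with the deletion, by a median ratio of -1.76 in ΔS6:c-Myc relative to Alb-c-Myc and -0.29 in ΔS6 over WT. The hepatocyte markers on the arrays (9 of 11 listed genes measured) had mean values of 14.75 in ΔS6:c-Myc, 14.83 in ΔS6, 14.81 in Alb-c-Myc and 14.88 in WT. In whole liver, fewer cells of a type and less RNA per cell cannot be told apart. The WT array stood apart from the other 3 in Xist, an RNA made from the inactive X, and in pancreatic enzyme mRNAs. Their values are given with the Cyp2b genes, and each member is also compared between ΔS6 and Alb-c-Myc, which leaves the WT array out. Those genotypes differ in both the Rps6 deletion and the c-Myc transgene, so their ratio does not isolate the deletion.

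On the deposited scale, all of the calls at 2-fold in the 5 comparisons fell on P450 genes. Over the 4 arrays the log2 values spanned 1.29 for Cyp1a2 to 4.22 for Cyp2b9 among the P450 genes, and 0.48 for Nr1i2, 0.99 for Nr1i3 and 1.14 for Ahr among the receptors, so the range of Cyp1a2 was close to that of Ahr. In ΔS6 over WT, 1 of the 8 measured genes was at least 2-fold higher (Cyp1a1) and 3 were lower (Cyp1a2, Cyp2b9 and Cyp2b13), against 7.24% of all genes higher and 2.54% lower. In Alb-c-Myc over WT, 0 of 8 were higher and 3 were lower, which were all 3 Cyp2b genes, while only 0.418% of all genes were higher and 0.335% lower. In ΔS6:c-Myc relative to Alb-c-Myc the same 3 Cyp2b genes were at least 2-fold higher and 0 of 8 were lower, against 1.99% and 1.36% of all genes. In both of these comparisons the count is 2 with the median of all probe sets or without the _s_at class (probe sets that match more than 1 transcript), since Cyp2b10 then falls short of 2-fold. Between the deleted livers, ΔS6:c-Myc had 3 of 8 higher than ΔS6 (Cyp1a2, Cyp2b9 and Cyp2b13) and 1 lower (Cyp1a1), against 0.769% and 4.29%. With median-centring or renewed quantile normalization 4 were higher, Nr1i3 included (ratios of 1.01 and 1.02). In ΔS6:c-Myc over WT, 0 of 8 were higher and 1 was lower (Cyp2b13), against 3.00% and 1.80%. Comparisons that share an array also share its chance values, and 3 of these 5 share the WT array.

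**Figure D1:**
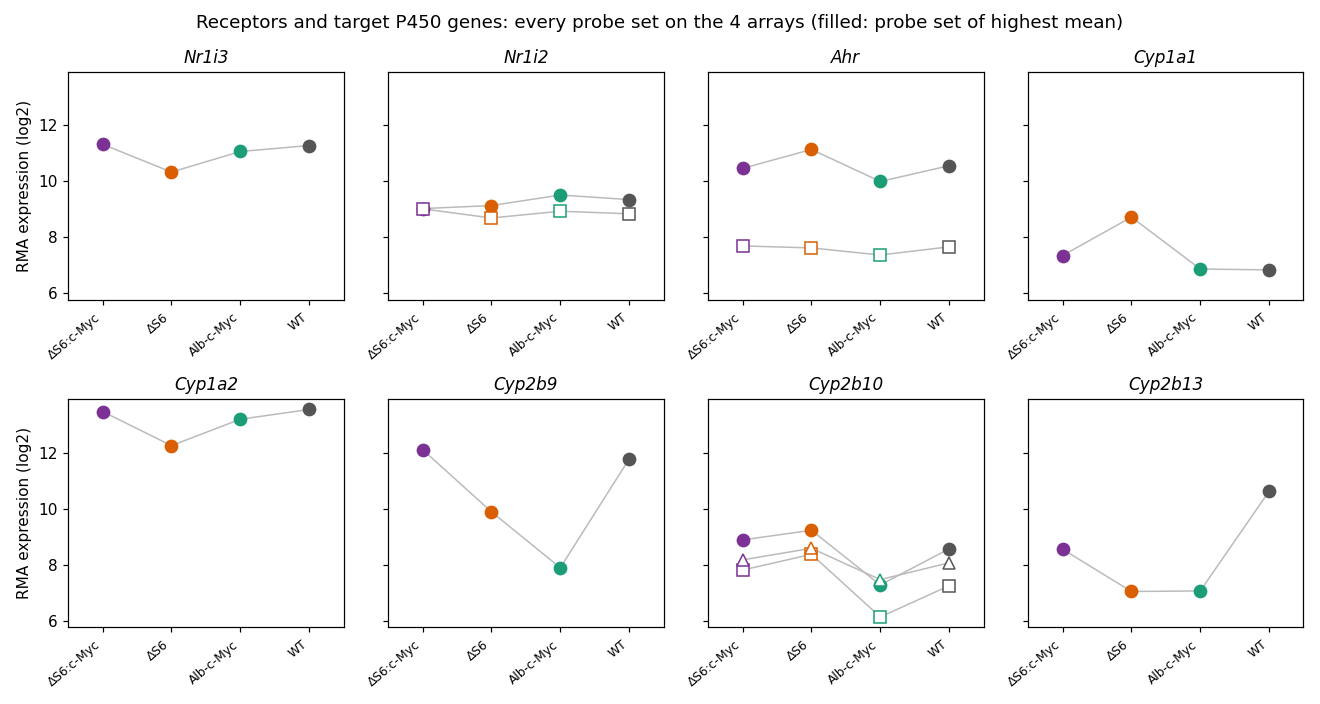
RMA expression values (log2, vertical axis) of the 8 measured genes by genotype (horizontal axis, 4 arrays); each marker shape is 1 probe set, and filled markers are the probe set of highest mean. Nr1i2 stays between 9.03 and 9.51 on its filled probe set, whereas Cyp2b9 is at 12.10 in ΔS6:c-Myc and at 7.89 in Alb-c-Myc.

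On the deposited scale none of the 3 receptor genes reached 2-fold in the 5 comparisons. Nr1i3, which encodes Car, came closest, and passed it in ΔS6:c-Myc over ΔS6 with median-centring and with renewed quantile normalization. Its single probe set had log2 values of 11.32 in ΔS6:c-Myc, 10.33 in ΔS6, 11.07 in Alb-c-Myc and 11.28 in WT. ΔS6 was the lowest of the 4 arrays, and the other 3 lay close together. The ratio was -0.95 for ΔS6 over WT (1.93-fold lower) and 0.99 for ΔS6:c-Myc over ΔS6 (1.99-fold higher), both several times the SD between probe sets. With the c-Myc transgene on both sides the deletion gave a ratio of 0.26, about the size of that SD. ΔS6 was also below Alb-c-Myc, by a ratio of -0.73.

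Nr1i2, the Pxr gene, was the flattest of the receptors. Its probe set of higher mean had log2 values of 9.03 in ΔS6:c-Myc, 9.14 in ΔS6, 9.51 in Alb-c-Myc and 9.35 in WT, and the other had 9.02, 8.69, 8.93 and 8.84 in the same order. Both were lower in ΔS6 than in WT by less than the SD between probe sets, with ratios of -0.21 and -0.15, and over Alb-c-Myc the ratios were -0.38 and -0.24. They parted in ΔS6:c-Myc relative to Alb-c-Myc, at -0.48 and 0.08, so no direction can be given there.

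The brighter probe set of Ahr had log2 values of 10.46 in ΔS6:c-Myc, 11.14 in ΔS6, 10.00 in Alb-c-Myc and 10.56 in WT. ΔS6 was the highest array and Alb-c-Myc the lowest. Its ratio was 0.58 for ΔS6 over WT, -0.56 for Alb-c-Myc over WT, 0.47 for ΔS6:c-Myc relative to Alb-c-Myc and -0.68 for ΔS6:c-Myc over ΔS6. The dimmer probe set had 7.70, 7.62, 7.37 and 7.66 in the same order of genotypes, with ratios of -0.04, -0.29, 0.33 and 0.07 for those comparisons. The higher Ahr value in ΔS6 thus rested on 1 of its 2 probe sets. Both probe sets put Alb-c-Myc lowest, and in ΔS6 over Alb-c-Myc the brighter one was past 2-fold (ratio 1.14) and the dimmer one was at 0.25.

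The Cyp1a genes are the classical Ahr targets. They are neighbouring protein-coding genes on mouse chromosome 9. Cyp1a1, which oxidises polycyclic aromatic hydrocarbons, is barely expressed in liver until Ahr is activated, whereas Cyp1a2, which oxidises arylamines and caffeine, is a constitutive gene of hepatocytes near the central vein. The 250 bases before each annotated start (RefSeq, GRCm38.p6) are shown because these neighbours went in opposite directions in ΔS6 liver. Cyp1a1 lies on the + strand (chr9:57697363-57697612) and Cyp1a2 on the - strand (chr9:57683656-57683905). Capitals mark the XRE core GCGTG and TATAAA, each searched on both strands.
Cyp1a1: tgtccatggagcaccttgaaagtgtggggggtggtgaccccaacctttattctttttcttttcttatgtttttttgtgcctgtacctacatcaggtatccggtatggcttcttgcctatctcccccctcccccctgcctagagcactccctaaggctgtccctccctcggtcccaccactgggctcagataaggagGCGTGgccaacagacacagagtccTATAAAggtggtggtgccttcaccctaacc
Cyp1a2: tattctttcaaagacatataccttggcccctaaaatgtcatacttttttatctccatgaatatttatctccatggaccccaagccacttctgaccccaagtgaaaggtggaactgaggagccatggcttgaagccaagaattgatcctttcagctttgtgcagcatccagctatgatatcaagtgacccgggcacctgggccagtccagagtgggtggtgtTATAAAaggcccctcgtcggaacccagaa
The motif TATAAA begins 30 bases before the start of Cyp1a1 and 29 bases before that of Cyp1a2, and 12.4% of 32851 promoter windows of this length hold it. The XRE core GCGTG occurs at 1 place before Cyp1a1, beginning 54 bases from its start, and is not among the letters of the Cyp1a2 window. It is held by 28.2% of all windows. A match of letters is no measure of binding, and regions farther from the start were not searched.

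Cyp1a1 was higher and Cyp1a2 lower in ΔS6 than in WT. The single probe set of Cyp1a1 had log2 values of 7.35 in ΔS6:c-Myc, 8.72 in ΔS6, 6.87 in Alb-c-Myc and 6.84 in WT. The last 2 of these lie at the median of their arrays (6.87 and 6.86), so the gene was dim there and the size of a ratio over them is uncertain. ΔS6 alone stood out, at 3.69-fold over WT (ratio 1.88) and 3.61-fold over Alb-c-Myc. In ΔS6:c-Myc relative to Alb-c-Myc the ratio was 0.48, and in ΔS6:c-Myc over ΔS6 it was -1.37 (2.59-fold lower).

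Cyp1a2 ran the other way. It had log2 values of 13.46 in ΔS6:c-Myc, 12.25 in ΔS6, 13.19 in Alb-c-Myc and 13.54 in WT. Again ΔS6 stood apart, now as the lowest, while the other 3 arrays lay within 0.35 of each other. The ratio was -1.29 for ΔS6 over WT (2.44-fold lower) and 1.22 for ΔS6:c-Myc over ΔS6 (2.32-fold higher). It was -0.94 over Alb-c-Myc, just under 2-fold, and 0.27 for ΔS6:c-Myc relative to Alb-c-Myc. In both Cyp1a genes, then, the ΔS6 array differed from the other 3 and the ΔS6:c-Myc array lay nearer to WT than to ΔS6, with differences between the 2 Rps6 ratios (with the transgene minus without) of -1.40 for Cyp1a1 and 1.56 for Cyp1a2.

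The Cyp2b subfamily holds classical targets of Car, Cyp2b10 among them. Cyp2b10, Cyp2b13 and Cyp2b9 follow one another as protein-coding genes on mouse chromosome 7. Cyp2b10 is the one strongly induced by phenobarbital, and Cyp2b9 and Cyp2b13 are known for higher mRNA levels in adult female than male mouse liver. The windows before their starts (RefSeq, GRCm38.p6, all on the + strand) are shown because all 3 mRNAs were lowest, or level with the lowest, on the Alb-c-Myc array although the windows differ between Cyp2b10 and the other 2. They lie at chr7:26173159-26173408 for Cyp2b9, chr7:26061245-26061494 for Cyp2b13 and chr7:25897408-25897657 for Cyp2b10. Capitals mark the nuclear receptor half-site AGGTCA and the XRE core, searched on both strands as before.
Cyp2b9: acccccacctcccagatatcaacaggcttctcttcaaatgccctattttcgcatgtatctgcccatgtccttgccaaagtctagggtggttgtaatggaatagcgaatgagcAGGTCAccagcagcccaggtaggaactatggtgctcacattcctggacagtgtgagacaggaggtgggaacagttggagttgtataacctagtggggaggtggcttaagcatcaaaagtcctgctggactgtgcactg
Cyp2b13: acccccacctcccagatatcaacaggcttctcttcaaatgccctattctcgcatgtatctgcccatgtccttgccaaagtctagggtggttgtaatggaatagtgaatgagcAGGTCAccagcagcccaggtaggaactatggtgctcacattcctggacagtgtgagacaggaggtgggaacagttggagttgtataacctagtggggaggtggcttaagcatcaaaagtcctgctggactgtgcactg
Cyp2b10: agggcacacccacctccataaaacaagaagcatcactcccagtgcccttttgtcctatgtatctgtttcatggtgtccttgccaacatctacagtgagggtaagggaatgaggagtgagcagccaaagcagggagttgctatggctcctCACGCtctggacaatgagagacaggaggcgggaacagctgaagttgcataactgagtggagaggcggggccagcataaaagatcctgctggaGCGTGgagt
Cyp2b9 and Cyp2b13 share 248 of these 250 bases. The 2 differences are T48C and C104T, with the base of Cyp2b9 first, that of Cyp2b13 last and positions counted from 1 at the 5′ end of the run. Cyp2b10 shares 186 bases with each of them when aligned with gaps. The half-site AGGTCA begins 138 bases before the starts of Cyp2b9 and Cyp2b13, and 14.0% of all windows hold it somewhere. The Cyp2b10 window holds the XRE core at 2 places (as CACGC on the printed strand 101 bases and as GCGTG 9 bases before the start). None of the 3 windows holds TATAAA on either strand.

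Cyp2b9 had the widest range of the 8 genes. Its single probe set had log2 values of 12.10 in ΔS6:c-Myc, 9.89 in ΔS6, 7.89 in Alb-c-Myc and 11.77 in WT. Each genotype thus had its own level except that ΔS6:c-Myc and WT lay close together (ratio 0.34). Alb-c-Myc was 14.7-fold below WT (ratio -3.88) and ΔS6 was 3.69-fold below WT (ratio -1.88). ΔS6:c-Myc, which carries both alterations, was 18.6-fold above Alb-c-Myc (ratio 4.22) and 4.65-fold above ΔS6 (ratio 2.22). Adding up the 2 single ratios over WT would give a level far below that of WT, and the measured one exceeded the sum by 6.10. The summed level would lie below the array medians, where signals are dim, so the size of this excess is uncertain. The WT array, which stood apart in Xist, also enters it, and the excess was not tested.

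Cyp2b13 shared the low values of the single alterations but not the return to WT. It had log2 values of 8.55 in ΔS6:c-Myc, 7.04 in ΔS6, 7.06 in Alb-c-Myc and 10.62 in WT. The ΔS6 and Alb-c-Myc values lie near the medians of their arrays (6.88 and 6.87), so the probe set was dim there, and neither their order nor the size of a ratio over them is certain. As measured they were 11.9-fold and 11.8-fold below WT. ΔS6:c-Myc stood between them and WT, 2.81-fold above Alb-c-Myc (ratio 1.49), 2.84-fold above ΔS6 (ratio 1.51) and 4.20-fold below WT (ratio -2.07). In ΔS6 over Alb-c-Myc the ratio of Cyp2b9 was 2.00, and that of Cyp2b13, between its 2 dim values, was -0.02.

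Cyp2b10 was the one Cyp2b gene that was not lower in ΔS6 than in WT. Its probe set of highest mean had log2 values of 8.88 in ΔS6:c-Myc, 9.23 in ΔS6, 7.27 in Alb-c-Myc and 8.57 in WT. A second had 7.81, 8.37, 6.13 and 7.25 in the same order, and the remaining one had 8.17, 8.58, 7.47 and 8.07. All 3 probe sets gave the same order of genotypes, with ΔS6 highest, ΔS6:c-Myc next, then WT and Alb-c-Myc lowest. The sizes differed between them. For ΔS6 over WT the ratios were 0.66, 1.12 and 0.52, for Alb-c-Myc over WT -1.29, -1.12 and -0.60, and for ΔS6:c-Myc relative to Alb-c-Myc 1.61, 1.67 and 0.70. The first 2 belong to a class that Affymetrix marks (_s_at) for probes that match more than 1 transcript, so other Cyp2b mRNAs may add to them, and on the remaining one, which is not so marked, Alb-c-Myc was 1.52-fold below WT, short of 2-fold. In ΔS6 over Alb-c-Myc all 3 were past 2-fold, at 3.87, 4.71 and 2.17.

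**Figure D2:**
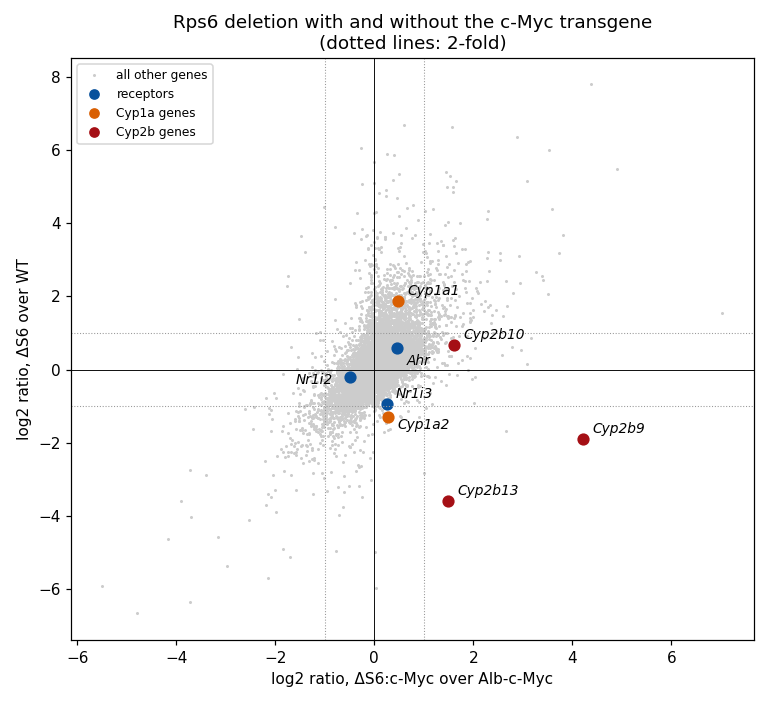
Log2 ratio of ΔS6 over WT (vertical axis) against ΔS6:c-Myc relative to Alb-c-Myc (horizontal axis), with 1 point per gene, the receptors, Cyp1a genes and Cyp2b genes in colour and dotted lines at 2-fold. Cyp2b9 (-1.88 vertical, 4.22 horizontal) and Cyp2b13 (-3.58, 1.49) lie at lower right, away from the diagonal cloud of all genes.

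Several mRNAs that differ between the sexes stood apart on the same arrays. Xist had log2 values of 6.33 in ΔS6:c-Myc, 5.88 in ΔS6, 6.29 in Alb-c-Myc and 11.84 in WT, although the labels describe all pools as male. The 3 measured Y-linked genes (Kdm5d, Eif2s3y and Uty) had log2 values of 7.70 to 9.11 over the 4 arrays, each lowest in WT. Their ratios were 0.37, 0.45 and 0.31 for Alb-c-Myc over WT and 0.44, 0.42 and 0.06 for ΔS6 over WT. Eif2s3y had 8.91, 9.09, 9.11 and 8.67 in the same order of genotypes as Xist. Sult3a1, a female-biased sulfotransferase, had 4.28, 4.17, 4.27 and 9.15. Xist and Sult3a1 were thus high on the WT array only, like Cyp2b13 in its direction but unlike Cyp2b9.

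Of 7 measured female-biased liver genes other than Cyp2b (12 listed), 1 was at least 2-fold higher and 3 lower in ΔS6 over WT. The shares of all genes there were 7.24% and 2.54%. In Alb-c-Myc over WT 0 were higher and 5 lower, against 0.418% and 0.335% of all genes. In ΔS6:c-Myc relative to Alb-c-Myc 4 were higher and 0 lower, against 1.99% and 1.36%. The mean log2 value of the 7 was 7.69 in ΔS6:c-Myc, 7.71 in ΔS6, 6.87 in Alb-c-Myc and 8.96 in WT. All 9 measured male-biased genes (12 listed) were lower with the deletion, with the transgene (ΔS6:c-Myc against Alb-c-Myc) and without it (ΔS6 against WT). Mup3 fell short of 2-fold with the transgene (ratio -0.61), so the drop reached 2-fold for 8 genes there and for all 9 genes without it. Their mean was 10.03, 7.89, 12.98 and 12.56. The 10 measured pancreatic acinar genes (12 listed) had means of 7.06, 6.82, 7.61 and 9.68, also highest in WT. The part of these RNAs in the Cyp2b ratios over WT was not tested. In ΔS6:c-Myc relative to Alb-c-Myc, neither of which is the WT array, Cyp2b9 had a ratio of 4.22, and the 4 female-biased genes that were higher were Hao2 (2.01), Cyp3a44 (1.98), Slc22a26 (1.04) and Acot3 (1.00). Slc22a26 was at 6.50 in Alb-c-Myc, below the median of that array (6.87), and Acot3 lay at the threshold, so the count of 4 is uncertain. Xist had a ratio of 0.03 there, and Sult3a1 was dim on both arrays.

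**Figure D3:**
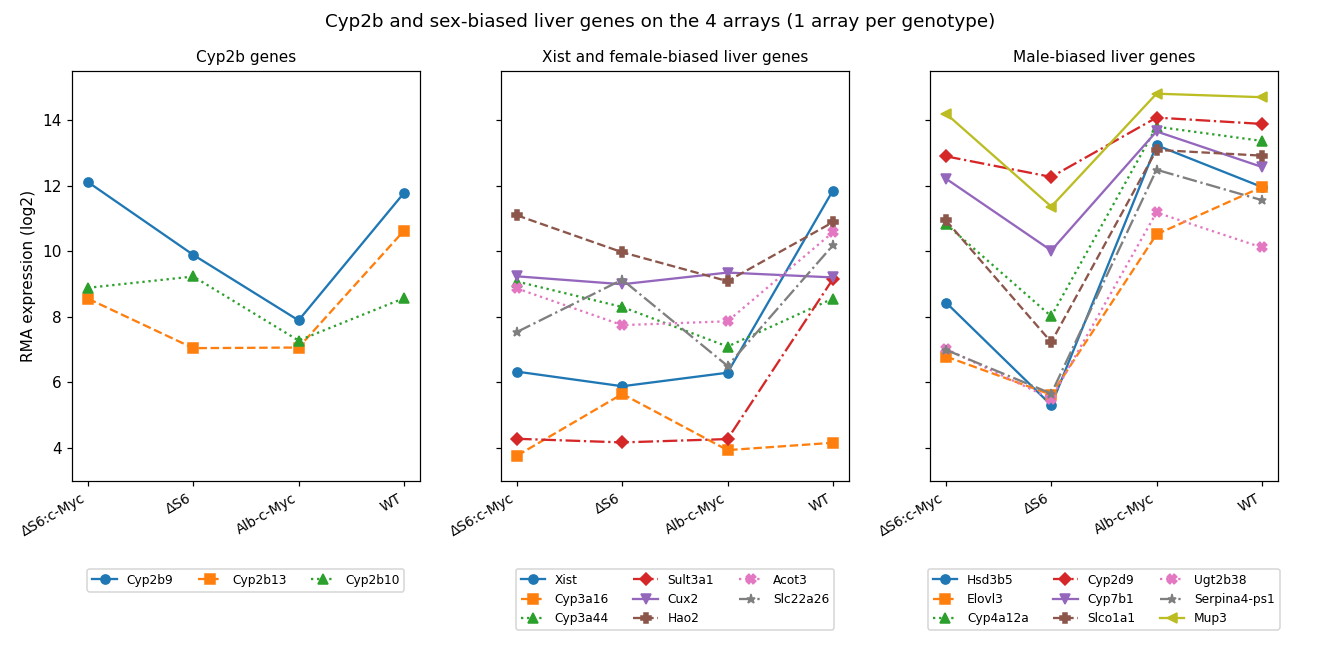
RMA expression values (log2, vertical axis) of the Cyp2b genes (left), of Xist and the 7 measured female-biased liver genes (middle) and of the 9 measured male-biased liver genes (right) by genotype (horizontal axis, 4 arrays). Xist and Sult3a1 are high on the WT array only (11.84 and 9.15), whereas Cyp2b9 is high in ΔS6:c-Myc and WT.

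Receptors and targets were then set side by side. In ΔS6 over WT the median ratio was -0.21 for the 3 receptors and -1.29 for the 5 P450 genes, against -0.05 for all genes. For Alb-c-Myc over WT it was -0.21 and -1.29, against 0.00 for all genes, and the P450 median was -0.60 without the _s_at class. For ΔS6:c-Myc relative to Alb-c-Myc it was 0.26 and 1.49, against -0.01, and the P450 median was 0.70 without that class. For ΔS6:c-Myc over WT the medians were -0.10 and 0.32, against -0.01. In ΔS6 over Alb-c-Myc in place of WT the P450 median was 1.85, the opposite sign to that over WT. That pair also differs in the transgene. The P450 medians pool genes that went opposite ways in ΔS6, so they describe no single member. Between receptor and target pairs the directions matched in part. Nr1i3 was lowest in ΔS6, whereas Cyp2b10, a classical Car target, was highest there on all 3 probe sets. The other Cyp2b genes, Cyp2b9 and Cyp2b13, were lower in ΔS6 than in WT, as Nr1i3 was. This match rests on the WT array. Over Alb-c-Myc, ΔS6 had a ratio of -0.73 for Nr1i3, 2.00 for Cyp2b9 and, between dim values, -0.02 for Cyp2b13. Cyp1a1 and the brighter Ahr probe set were both highest in ΔS6, but Cyp1a2, also an Ahr target, was lowest. On the Alb-c-Myc array, where Cyp2b9 was 14.7-fold below WT, Nr1i3 was within 1.16-fold of WT and Nr1i2 within 1.12-fold. With 4 arrays no correlation between receptor and target was computed.

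The other genes of the Ahr pathway stayed under 2-fold in the 5 comparisons. Of 11 listed, 6 had a probe set of their own, and 0 of these were at least 2-fold higher or lower in any of the 5 comparisons. Cyp1b1, an Ahr-responsive P450 outside the Cyp1a subfamily, had 6.34 in ΔS6:c-Myc, 7.18 in ΔS6, 6.07 in Alb-c-Myc and 6.35 in WT, a ratio of 0.83 for ΔS6 over WT, -0.84 for ΔS6:c-Myc over ΔS6 and, past 2-fold, 1.11 for ΔS6 over Alb-c-Myc. Nqo1, a quinone reductase induced by both Ahr and Nrf2, had ratios of 0.59, -0.84 and 0.80 in the same comparisons. Both were thus highest on the ΔS6 array, by more than the SD between probe sets. Cyp1b1 lay below the array medians in ΔS6:c-Myc (6.85), Alb-c-Myc (6.87) and WT (6.86), so the size of its ratios is uncertain. For ΔS6 over WT, Tiparp had a ratio of 0.19 and Aldh3a1 of -0.16, and the median of the 6 was 0.10. Arnt, the partner of Ahr, had -0.15 for ΔS6 over WT and the Ahr repressor Ahrr 0.01, from values near 4.4 on all arrays.

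Of 25 further genes of the Car and Pxr pathway, 23 were measured. In ΔS6 over WT 2 were higher by 2-fold or more and 1 was lower (median -0.23), against 7.24% and 2.54% of all genes. In ΔS6:c-Myc relative to Alb-c-Myc 4 were higher and 3 lower (median 0.03), against 1.99% and 1.36% of all genes. The partner Rxra had 11.97 in ΔS6:c-Myc, 11.53 in ΔS6, 12.22 in Alb-c-Myc and 12.33 in WT, with a ratio of -0.80 for ΔS6 over WT. Abcc4, an export pump for bile acids and drug conjugates, had ratios of 3.04 for ΔS6 over WT and 2.27 for ΔS6:c-Myc relative to Alb-c-Myc, and the glutathione transferase Gstm3 of 1.44 and 1.54. The carboxylesterase Ces2a was lower in both, at -2.16 and -1.89. These 3 genes gave the same direction with and without the transgene, which Cyp2b9 and Cyp2b13 did not.

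In contrast, other targets on that list differed between the backgrounds. Cyp2c55, a P450 inducible through Car and Pxr in mice, had 10.12 in ΔS6:c-Myc, 9.49 in ΔS6, 7.03 in Alb-c-Myc and 9.33 in WT. Like Cyp2b9 and Cyp2b10 it was lowest in Alb-c-Myc, by a ratio of -2.29 over WT, and its ratio in ΔS6:c-Myc relative to Alb-c-Myc was 3.08. Of the 23 measured genes of the list, 2 were at least 2-fold lower and 0 higher in Alb-c-Myc over WT, against 0.335% and 0.418% of all genes. The one besides Cyp2c55 was the uptake transporter Slco1a4 (-1.22). Abcc2, the conjugate pump of the bile canaliculus, was higher in ΔS6:c-Myc livers than in Alb-c-Myc livers (1.37), whereas Abcc3, which exports conjugates into blood, was lower (-1.43). So was Nr0b2, the gene of the corepressor Shp (-2.01). Cyp3a11, the most used marker of Pxr activity in mice, had values from 14.85 to 14.99 and ratios of -0.13 and 0.02, near the top of the scale where an array responds least.

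Among 18 listed genes of electron transfer and haem supply, 16 were measured. In ΔS6 over WT the median of the measured genes was -0.44, against -0.05 for all genes. Of these 16, 1 was at least 2-fold higher and 0 were lower, against 7.24% and 2.54% of all genes. That one was Hmox1, which breaks down haem, with 9.45 in ΔS6:c-Myc, 10.96 in ΔS6, 8.20 in Alb-c-Myc and 8.19 in WT. Alas1, the rate-limiting enzyme of haem synthesis, had 13.34, 13.15, 14.01 and 14.07 in the same order, a ratio of -0.93 for ΔS6 over WT and -0.67 for ΔS6:c-Myc relative to Alb-c-Myc. Alas1 was thus low in both deleted livers, unlike Cyp1a2 and Nr1i3. Cyb5a, the cytochrome b5 that can pass electrons to P450 enzymes, had a ratio of -0.30 and its reductase Cyb5r3 of -0.71 for ΔS6 over WT. In ΔS6:c-Myc relative to Alb-c-Myc the list had a median of -0.05. There 1 was higher (Hmox1, 1.25) and 0 were lower, against 1.99% and 1.36% of all genes.

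**Figure D4:**
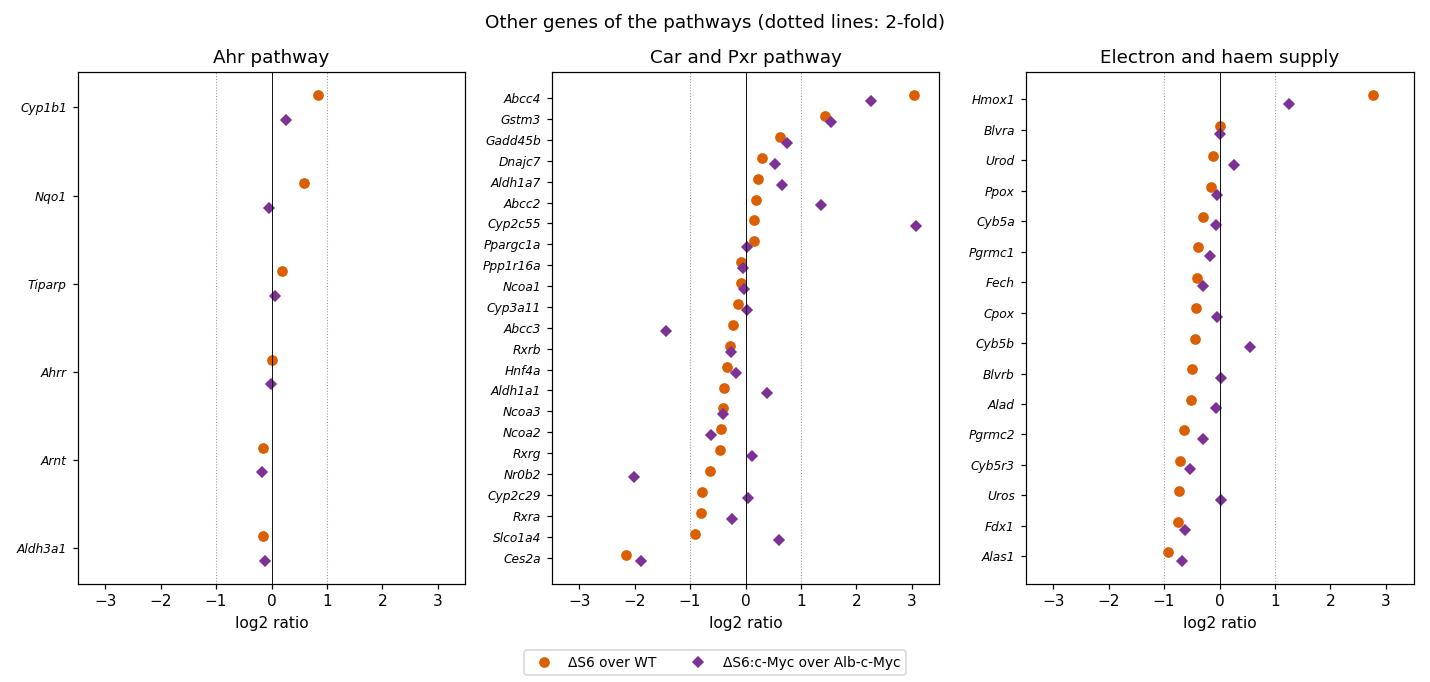
Log2 ratios (horizontal axis) of ΔS6:c-Myc relative to Alb-c-Myc (diamonds) and ΔS6 over WT (circles) for the measured genes of 3 lists (1 row per gene), with dotted lines at 2-fold. Abcc4, Gstm3, Ces2a and Hmox1 are past 2-fold on the same side in both comparisons, and Cyp2c55 is at 0.16 for ΔS6 over WT and 3.08 for ΔS6:c-Myc relative to Alb-c-Myc.

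Patterns like those of the members were sought over the 4 arrays, by the root mean square (RMS) difference of centred log2 values among 9874 other genes. Nearest to Nr1i3 were Paqr9 (0.04), the glyoxalase Hagh (0.06) and Ppp1r3g (0.06), a glycogen-targeting subunit of protein phosphatase. Cyp1a2 was nearest to Exd1 (0.05), Ppp1r3g (0.08) and Hagh (0.11). The 2 members thus shared 2 of their 3 nearest genes. The RMS was not scaled to a gene's range, which was 3.58 for Cyp2b13 against 0.99 for Nr1i3 and 1.29 for Cyp1a2. Nearest to Cyp2b13 were Acot3 (0.34), an acyl-CoA thioesterase on the female-biased list, and the pancreatic genes Cel (0.65) and Rnase1 (0.71). For Cyp2b9, a search added after its values were seen, they were Cyp2c55 (0.83), the female-biased oxidase Hao2 (0.89) and Oat (0.98), an aminotransferase of cells near the central vein. With 4 points per gene, such likeness is a description of these arrays.

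Markers of other liver cells moved with the ΔS6 array, on which Cyp1a2 and Nr1i3 were lowest and Cyp1a1 highest. Of 10 listed bile duct and progenitor genes 7 were measured, and their mean log2 value was 7.86 in ΔS6:c-Myc, 11.06 in ΔS6, 6.75 in Alb-c-Myc and 6.81 in WT. For 10 macrophage genes it was 10.71, 12.09, 9.90 and 9.98, and for 7 of 8 neutrophil genes 6.77, 10.09, 6.64 and 6.76. Genes of hepatocytes near the central vein, the zone where Cyp1a2 is made, had means of 10.90, 10.85, 10.74 and 11.27, with 1 of 12 at least 2-fold higher and 3 lower in ΔS6 over WT. Those of periportal hepatocytes had 12.28, 12.33, 12.60 and 12.72, with 0 of 8 higher and 2 lower in the same comparison. The shares of all genes in that comparison were 7.24% higher and 2.54% lower. The part of these cell types in the Cyp1a and Nr1i3 ratios was not tested.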

How the data were processed

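Total liver RNA of 3 mice per genotype was combined and hybridized to 1 Affymetrix mouse GeneChip. The authors summarized probe sets by RMA and quantile-normalized them, and deposited log2 values. RMA and affy are the tools in the submitters' processing notes, with versions not given in the sources used here. Detection calls were not used, so dim signals cannot be told from background. The number of arrays limits precision.

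Log2 ratios were computed for 5 pairs of arrays. Gene symbols came from the platform annotation (34958 of 45101 with 1 symbol, 932 with several, 9211 with none), and a gene took its probe set of highest mean. Every probe set of a member is reported. The genes named beyond the members are list genes at least 2-fold changed in ΔS6 over WT or needed beside a member, and the 3 nearest patterns of Cyp1a2, Cyp2b13 and Nr1i3 with a maximum of at least 8; the search for Por was void. Cyp2c55, Slco1a4, Abcc2, Abcc3 and Nr0b2 were named after their values were seen. Members and lists were chosen with earlier results of these data known. No test was run, since each genotype has 1 array. The counting was checked on simulated arrays. Alternatives covered scaling, probe set choice, a filter on dim probe sets, the threshold and, added later, Alb-c-Myc as the reference. Python 3.11.15, numpy 2.4.6, pandas 2.3.3, statsmodels 0.14.6 and matplotlib 3.10.9 were used.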

Additional observations from a re-analysis of the deposited data

Results flagged for a closer look

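For 2 of the 8 genes the deletion of Rps6 went past 2-fold in opposite directions with and without the c-Myc transgene. On the log2 scale the ratio of Cyp2b9 was 4.22 for ΔS6:c-Myc relative to Alb-c-Myc and -1.88 for ΔS6 over WT. Cyp2b13 had ratios of 1.49 and -3.58 in the same comparisons. The ratios over WT rest on the 1 array that stands apart in Xist (11.84) and in female-biased and pancreatic mRNAs. In ΔS6 over Alb-c-Myc, Cyp2b9 had a ratio of 2.00, the opposite sign, and Cyp2b13 of -0.02 between 2 dim values. That pair of arrays also differs in the transgene. The difference between the backgrounds was not tested, since each genotype has 1 array.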

How the results depend on the processing

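Of 488 values recomputed under the alternatives of scaling, probe set choice, dim filter and threshold, 457 moved by less than the SD between probe sets (counts by at most 1.5 times), 31 moved by more and 0 reversed a ratio past 2-fold. Median-centring, renewed quantile normalization, loess and the filter on dim probe sets moved none of them beyond that, but the first 2 put Nr1i3 past 2-fold in ΔS6:c-Myc over ΔS6 (1.01 and 1.02), which makes 4 members higher. The probe set choice mattered for genes with several. The P450 median of Alb-c-Myc over WT was -1.002 with the mean of all probe sets, -0.79 with their median and -0.60 without the _x_at and _s_at classes. That of ΔS6:c-Myc relative to Alb-c-Myc was 0.90 with the median and 0.70 without those classes, and the receptor median of ΔS6:c-Myc over ΔS6 was 0.11 with either average. Cyp2b10 is the member behind both P450 shifts, and its 2-fold call in both comparisons is lost with the median and without those classes. At 1.5-fold, 2 members were higher in ΔS6 over WT and 2 lower in ΔS6:c-Myc over ΔS6. At 4-fold, 0 were higher and 1 lower in ΔS6 over WT, 1 was higher in ΔS6:c-Myc relative to Alb-c-Myc, and 1 was higher and 0 lower in ΔS6:c-Myc over ΔS6. With the Alb-c-Myc array as reference, chosen after seeing the data, ΔS6 had 4 members higher (Ahr, Cyp1a1, Cyp2b9 and Cyp2b10) and 0 lower. The P450 median was then 1.85 and the Cyp2b9 ratio 2.00, both reversed. This reference carries the transgene, so the ratios mix its difference with that of the deletion, and the cause was not tested. No replicate could be left out with 1 array per genotype. No paired analysis was possible because each genotype has a single pooled sample.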
